A study of Rattus with 4 samples.

Results

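Klhl29, Rai1, Nufip2, Agfg1 and Rbpms are 5 protein-coding genes of unrelated families, taken from the 13731 genes listed in the deposited table of rat cardiac cells. They were chosen by their read counts, which in RNA precipitated with an antibody to NONO were far above those in input RNA in both libraries of each kind. The difference between NONO IP and input is therefore what chose them, and it is described below without a test. All 5 were matched by symbol and are among 12190 coding genes listed and 2777 coding genes tested.

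NONO is a nuclear protein that binds RNA and DNA and belongs to the core of paraspeckles. In RNA immunoprecipitation sequencing an antibody recovers a protein together with bound RNA, and that RNA is sequenced next to the input it came from. The 4 libraries were 2 NONO IP libraries, made with an anti-NONO antibody and labelled as cells given NONO siRNA, and 2 Input libraries, made with no antibody and labelled as cells given an empty vector. The growth protocol names a commercial rat cardiac fibroblast line, the tissue label reads cardiac musculus, and the titles read H9C2, the name of a rat heart myoblast line. Antibody and siRNA cannot be told apart by these labels, and a control antibody was not analysed here. Nothing in the labels tells whether replicates came from separate cultures, and p-values therefore reflect the spread among these 4 libraries, which may be technical.

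Gene counts summed to 279410 and 264059 reads in the NONO IP libraries, against 249548 and 238776 in the Inputs. Nono itself had 3 and 3 reads in NONO IP libraries and 21 and 9 in Inputs, a counted ratio of 0.133 (exact conditional 95% interval 0.0453 to 0.325). Fibroblast markers held 39780 NONO IP reads and 38161 Input reads over 11 listed genes, while Myod1, Myf5, Myog and Pax7, which define skeletal myoblasts, and the endothelial markers Pecam1, Cdh5 and Kdr were not among the listed genes. Of 10 skeletal myoblast markers, the 2 listed held 7 NONO IP reads and 21 Input reads. Of 7 endothelial markers, the 3 listed held 7 NONO IP reads and 6 Input reads. Summed levels ranged from 2008 to 2122 CPM in NONO IP libraries and from 4739 to 4752 CPM in Inputs for smooth muscle markers, and from 868 to 1039 CPM in NONO IP libraries and from 670 to 788 CPM in Inputs for cardiomyocyte markers. For fibroblast markers they ranged from 69104 to 69200 CPM in NONO IP libraries and from 98814 to 100391 CPM in Inputs. CPM is the read count scaled to a common library total over the tested genes, here after TMM scaling, which sets the bulk of genes near no change; 3 reads correspond to between 10.2 and 15.9 CPM per library.

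The products of the 5 genes act in different places. KLHL29 is a BTB-kelch protein; many proteins of that family hand substrates to CUL3 ubiquitin ligases. RAI1 is a chromatin-associated nuclear protein whose loss causes Smith-Magenis syndrome and whose duplication causes Potocki-Lupski syndrome in humans. NUFIP2 binds RNA and was found as a partner of the fragile X protein FMRP, and it assists roquin in mRNA decay and enters stress granules. AGFG1 carries an ARF GAP domain and phenylalanine-glycine repeats and takes part in clathrin-mediated endocytosis. RBPMS has 1 RNA recognition motif and is a splicing regulator of differentiated smooth muscle cells.

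Klhl29, on chromosome 6, had the most reads of the group in the NONO IP libraries, 525 and 458, and 35 and 30 in the Inputs. That is 1778 and 1636 CPM in NONO IP libraries, against 180.3 and 159 CPM in Inputs. The ratio between any NONO IP and any Input library lay between 9.07 and 11.2, so each pairing of libraries gave about the same difference. By reads it was the 25th coding gene in both NONO IP libraries, against the 519th and the 597th in the Inputs.

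Rai1, on chromosome 10, had 277 and 251 reads in the NONO IP libraries and 17 and 18 in the Inputs. Its levels were 938 and 897 CPM in NONO IP libraries, against 87.6 and 95.3 CPM in Inputs. These were the closest replicates of the 5 genes, with NONO IP libraries that differed 1.05-fold and ratios across pairings from 9.41 to 10.7. Nufip2, also on chromosome 10, was the least read, with 168 and 134 reads in the NONO IP libraries and 12 and 10 in the Inputs. Its levels were 569 and 479 CPM in NONO IP libraries, against 61.8 and 52.9 CPM in Inputs, with ratios from 7.74 to 10.7. Although few, its Input reads gave 48.1 and 41.9 CPM over the plain library totals, above the count filter of 38.9; all 5 genes reached the filter in both Inputs, so none was tested on its NONO IP reads alone.

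Agfg1, on chromosome 9, had 339 and 269 reads in the NONO IP libraries and 36 and 24 in the Inputs. Its levels were 1148 and 961 CPM in NONO IP libraries, against 185 and 127 CPM in Inputs. The Inputs differed from each other by 1.46-fold, the widest gap between replicates among the 5 genes, and the ratios spread from 5.18 to 9.04. Rbpms, on chromosome 16, had 332 and 262 reads in the NONO IP libraries and 33 and 27 in the Inputs. Its levels were 1124 and 936 CPM in NONO IP libraries, against 170.0 and 143 CPM in Inputs, with ratios from 5.51 to 7.87. Agfg1 and Rbpms were nearly the same in CPM, at 1054 ± 132 and 1030.0 ± 133 CPM in the NONO IP and 156 ± 41.3 and 156 ± 19.2 CPM in the Input (SD, n = 2). No gene of the 5 had overlapping groups, which the way they were picked required.

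**Figure D1:**
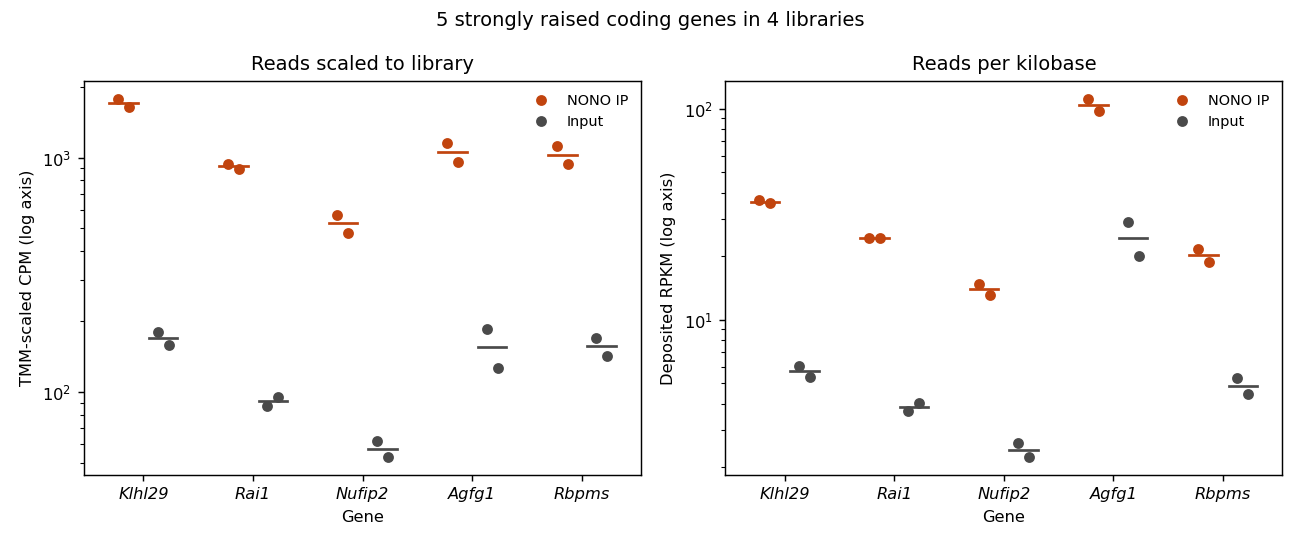
Levels of the 5 genes in each library on log axes, as TMM-scaled CPM (left) and deposited RPKM (right); points are libraries and bars are means of 2. NONO IP lies above Input for each gene, and Agfg1 stands above the others in RPKM but not in CPM.

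The fitted log2 fold changes of NONO IP over Input formed an upper and a lower set. They were 3.33 (SE 0.14) for Klhl29, 3.32 (SE 0.18) for Rai1 and 3.18 (SE 0.24) for Nufip2, against 2.75 (SE 0.18) for Agfg1 and 2.72 (SE 0.17) for Rbpms. Counting error alone was wide: the pooled ratio of Nufip2 was 9.14 with an exact conditional 95% interval of 5.93 to 14.8, and that of Klhl29 was 10.1 with 7.83 to 13.2. The intervals of Agfg1 (5.17 to 8.95) and Rbpms (5.05 to 8.75) overlapped both. All 5 passed an adjusted p under 0.05, where 27.3% of tested coding genes and 29.8% of all tested genes were called higher; nothing is read from that count because the same contrast chose them. Lower calls made up 26.9% of all tested genes. The share of calls that were higher was 52.6% with TMM, 73.3% with library totals, 64.5% with no count filter, 41.9% with an offset for gene length, and 21.6% and 23.3% on the RPKM scale with pseudocounts of 1 and 0.1.

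In the order of fold change among 415 tested coding genes with a mean of at least 50 reads and no placeholder symbol, the 5 genes took places 5, 6, 7, 9 and 10. Just above were Smad1, Spaca6 and Erf, at log2 fold changes of 4.27, 4.23 and 3.62. Dyrk1a, at 2.85, stood between Nufip2 and Agfg1, and Hnrnpf (2.69), Kalrn (2.53) and Rbms1 (2.52) came next below. No gap separates Rbpms at 2.72 from Hnrnpf, so the lower edge of the group is a choice and not a break in the data. Without the minimum of reads, among all 2777 tested coding genes, the 5 genes ranked between 51st (Klhl29) and 105th (Rbpms).

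Levels per length gave another picture from reads. The deposited RPKM value, which divides reads by gene length and by a total for the library, was highest for Agfg1, at 111 and 97.4 RPKM in the NONO IP libraries and 29.0 and 20.01 RPKM in the Inputs. Klhl29 had 37.1 and 35.7 RPKM in NONO IP libraries and 6.05 and 5.38 in Inputs, and Rai1 had 24.5 and 24.5 in NONO IP libraries and 3.68 and 4.04 in Inputs. Rbpms had 21.7 and 18.9 RPKM in NONO IP libraries and 5.28 and 4.47 in Inputs, and Nufip2 had 14.8 and 13.1 in NONO IP libraries and 2.60 and 2.24 in Inputs.

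The order of level was thus Agfg1, Klhl29, Rai1, Rbpms, Nufip2 in the NONO IP and Agfg1, Klhl29, Rbpms, Rai1, Nufip2 in the Input. The library ranges of neighbours in these orders did not overlap in either group, with 2 libraries each. By counting error alone they were apart in the NONO IP, where the closest neighbours, Rai1 and Rbpms, had a ratio per length of 1.20 (exact conditional 95% interval 1.07 to 1.36). That interval uses reads summed over 2 libraries and leaves out further spread between them. In the Input, Agfg1 was 4.29-fold above Klhl29 (2.97 to 6.196), whereas Klhl29 against Rbpms (0.812 to 1.69), Rbpms against Rai1 (0.821 to 1.98) and Rai1 against Nufip2 (0.908 to 2.85) each had an interval that includes 1. The exchange of Rai1 and Rbpms between the groups therefore lies within counting error of the Inputs.

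The RPKM scale also gave smaller differences. The ratio of mean RPKM, NONO IP over Input, was 6.36 for Klhl29, 6.34 for Rai1, 5.76 for Nufip2, 4.26 for Agfg1 and 4.16 for Rbpms. The corresponding ratios of mean CPM were 10.1, 10.03, 9.13, 6.75 and 6.58. The total by which the authors divided was 2.38-fold that of the Inputs for the NONO IP libraries, so a NONO IP read counts for less RPKM. On both scales Klhl29 and Rai1 were nearly equal and Agfg1 and Rbpms were lower than the other 3.

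Dividing counts by RPKM gave the gene length the authors used, up to a constant, and this was not part of how the genes were picked. In multiples of the median tested coding gene it was 3.34 for Rbpms, 3.09 for Klhl29, 2.47 for Nufip2, 2.47 for Rai1 and 0.664 for Agfg1. These, apart from Agfg1, were longer than 90.4% to 96.2% of the tested coding genes, and Agfg1 was longer than 28.6%. When tested coding genes were cut into quintiles by length, all but Agfg1 lay in the longest one, and Agfg1 lay in the next to shortest.

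Long genes were higher in the NONO IP in general. From the shortest to the longest quintile of tested coding genes, the median log2 fold change was −0.78, −0.18, 0.02, 0.20 and 0.65, and the share called higher was 13.7%, 18.6%, 27.6%, 31.0% and 45.5%. Across 2777 coding genes, which are not independent replicates, log2 length and log2 fold change had a Pearson r of 0.32 and a Spearman rho of 0.32, given as a description. The choice of the genes put each high within its own quintile, from the 93.5th percentile for Rbpms to the 96.9th for Klhl29 and Agfg1. An offset that removes the trend with length lowered the log2 fold change to 2.43 for Klhl29, 2.64 for Rai1, 2.50 for Nufip2 and 1.75 for Rbpms, and left that of Agfg1 at 2.77. Agfg1 was then first of the 5, and Rbpms stayed last.

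**Figure D2:**
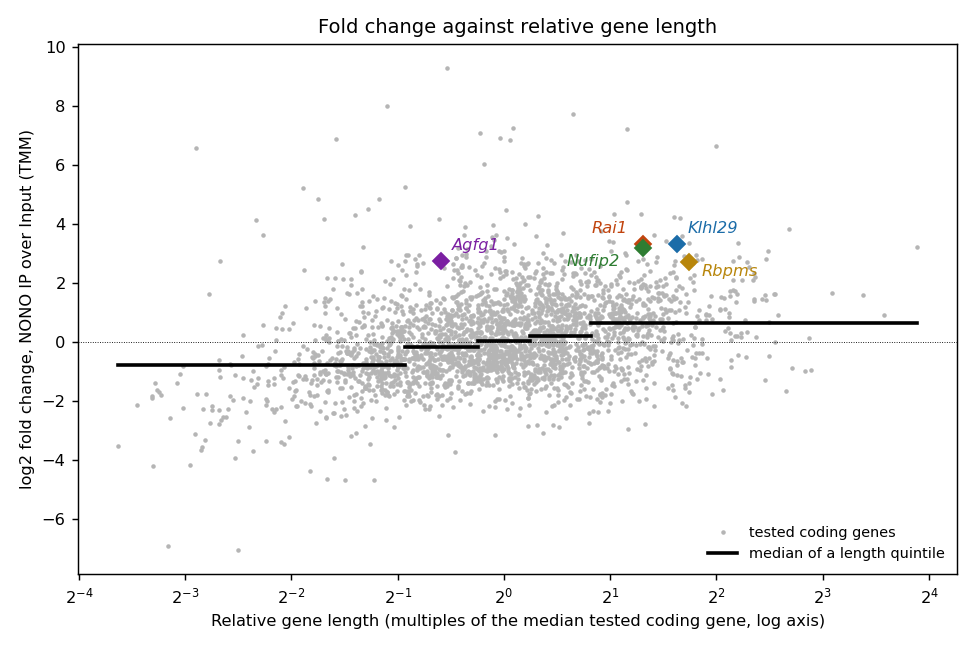
Log2 fold change of NONO IP over Input against relative gene length (log axis) for 2777 tested coding genes (grey), with the median of each length quintile (black bars) and the 5 genes (diamonds). Klhl29, Rai1, Nufip2 and Rbpms lie in the longest quintile, where the median is 0.65, and Agfg1 in the next to shortest, where it is −0.18.

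The listed genes nearest the 5 on the chromosome were less raised or carried few reads. Unlisted genes were skipped, so those that did not overlap a member stood from 1 (Atad2b) to 7 (Ccl20) genes away. Srebf1, which encodes a transcription factor of lipid synthesis, overlaps Rai1 in RefSeq's table of genes for the GRCr8 assembly. It had 10 and 11 reads in NONO IP libraries and 19 and 20 in Inputs and fell, with a log2 fold change of −1.47 (SE 0.37, edgeR adjusted p = 0.00288; 0.0675 with the DESeq2 Wald test), the opposite direction to Rai1. Tom1l2, the next listed gene beyond it, had a log2 fold change of 0.34 (SE 0.37, adjusted p = 0.447). Atad2b, beside Klhl29, encodes a bromodomain ATPase and rose by 1.49 (SE 0.44, adjusted p = 0.00828), a call that ended without NONO IP replicate 1 (adjusted p = 0.0548), without Input replicate 2 (0.0823), with the DESeq2 Wald test (0.119), with the length offset (0.188) and on the RPKM scales with pseudocounts of 1 and 0.1 (0.265 and 0.288).

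The noncoding gene LOC120103500, which overlaps Klhl29, had 3 and 1 reads in NONO IP libraries and 1 and 0 in Inputs. LOC120097493, which overlaps Rbpms, had 4 and 4 in NONO IP libraries and none in Inputs. The sources used here do not give how reads of overlapping genes were assigned or whether strand was used. Taok1, a kinase gene on one side of Nufip2, rose by 0.89 (SE 0.29, adjusted p = 0.0144; 0.107 without Input replicate 2, 0.172 with the DESeq2 Wald test, 0.604 with the length offset, and 0.619 and 0.572 on the RPKM scales), and Myo18a, a myosin gene on the other, had 0.24 (SE 0.28, adjusted p = 0.497). Of the listed genes nearest Agfg1, Mff had 4 and 9 reads in NONO IP libraries and 4 and 4 in Inputs, and Ccl20 had 1 and 0 in NONO IP libraries and none in Inputs. Pemt near Rai1, Gtf2e2 and LOC120097492 near Rbpms, and LOC103692581 near Klhl29 were likewise under the count filter, at 11 reads or fewer in any library.

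The closest relatives of the 5 genes carried few reads. Rbpms2, the paralog of Rbpms, had 5 and 2 reads in NONO IP libraries and 1 and 0 in Inputs, a counted ratio of 4.66 (exact conditional 95% interval 0.599 to 210.1). Agfg2 had 8 and 9 reads in NONO IP libraries and 5 and 5 in Inputs, a ratio of 1.13 (0.490 to 2.77). Nufip1 had 1 and 1 reads in NONO IP libraries and 1 and 3 in Inputs, a ratio of 0.333 (0.0301 to 2.32). NUFIP1 and NUFIP2 share a partner and a name and are listed together here on that ground. All 3 were under the count filter, and their intervals include no difference.

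Tcf20, the paralog of Rai1, was tested. It had 52 and 37 reads in NONO IP libraries and 15 and 12 in Inputs and rose by 1.13 (SE 0.31, adjusted p = 0.00490). The call ended with the DESeq2 Wald test (adjusted p = 0.0863), with the length offset (0.0559) and on the RPKM scales (0.318 and 0.294). Of 4 BTB-kelch and CUL3 pathway genes tested, Klhl2, whose product targets WNK kinases for degradation, rose by 1.42 (SE 0.38, adjusted p = 0.00446), with 32 and 37 reads in NONO IP libraries and 5 and 12 in Inputs. Its adjusted p was 0.0713 with the DESeq2 Wald test, 0.0855 without Input replicate 1, and 0.257 and 0.286 on the RPKM scales. Klhl21 and Klhdc3 did not pass, at 0.10 and −0.0016 (adjusted p = 0.838 and 0.999).

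The 7 lists of family, partner and interval genes gave 90 tested genes beside the 5, of which 23 were higher (25.6%) and 24 lower, at a median log2 fold change of 0.03. That is close to the 29.8% and 26.9% of all tested genes, whose median was 0.02. Relatives and partners as a whole thus had about the calls of any tested gene, on this scaling. Of the 23 higher genes, 11 did not reach the count filter in both Inputs and were tested only because of their NONO IP reads, among them Klhl2, Zfp217, Chd7, Atpaf2, Atxn2 and Celf2. Of the 24 lower genes, 10 did not reach it in both NONO IP libraries and were tested only because of their Input reads. Among these were Chd8, Srebf1, Caprin1, Cyfip1, Cltc and Ap2a2. Such genes were kept through the group where they are high, so these counts and those of each list rest in part on the filter. The same held for Atad2b. How many genes passed in this way without being called was not counted.

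Of 9 tested chromatin partners and relatives of RAI1, 4 rose and 1 fell (median 0.90). Those that rose were Tcf20, Zfp217, Chd7 and the acetyltransferase gene Crebbp, at 1.13, 1.19, 1.25 and 1.04, and none of the 4 was called with the DESeq2 Wald test, with the length offset or on the RPKM scales. Chd7 and Crebbp also lost their calls without Input replicate 1 (adjusted p = 0.146 and 0.113). Chd8, which like Chd7 encodes a chromatin remodeller, had 5 and 4 reads in NONO IP libraries and 20 and 12 in Inputs and fell (log2 fold change −2.38, SE 0.47, adjusted p = 0.000352; 0.0819 without Input replicate 1).

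Of 9 tested genes from the Smith-Magenis interval of the human genome, which holds RAI1, 2 rose and 5 fell (median −0.66); with the DESeq2 Wald test none was higher and 2 were lower, and with library totals 2 were higher and 2 lower. Mprip, a regulator of myosin phosphatase, had 235 and 229 reads in NONO IP libraries and 253 and 234 in Inputs and changed by −0.66 (SE 0.11, adjusted p = 5.66e-05; −0.19 and adjusted p = 0.125 with library totals). Mfap4, a matrix microfibril protein, changed by −1.20 (SE 0.21, adjusted p = 0.000108). Atpaf2, an assembly factor of ATP synthase, had 13 and 16 reads in NONO IP libraries and 0 and 3 in Inputs, a ratio of 6.44 with a counting interval of 1.995 to 33.0; its call ended without NONO IP replicate 2 (adjusted p = 0.102), without Input replicate 1 (0.101), with the DESeq2 Wald test (0.0765) and on the RPKM scales (0.154 and 0.259).

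Of 16 tested FMRP, roquin and stress granule genes, 2 rose and 5 fell (median −0.17). With library totals 5 were higher and 4 lower (median 0.29, where that of all tested genes was 0.48), with the DESeq2 Wald test none was higher and 3 were lower, and with the length offset none was higher and 6 were lower. Pabpc4, a poly(A)-binding protein gene, Caprin1, a stress granule protein gene, and Cyfip1, which encodes an FMRP partner, changed by −1.52, −1.89 and −1.78 (adjusted p = 9.65e-05, 0.00132 and 0.00194). The call of Cyfip1 ended with the DESeq2 Wald test (adjusted p = 0.0702), and that of Caprin1 on the RPKM scale with a pseudocount of 0.1 (0.0600). Atxn2 (1.08) and Larp1 (0.44), the pair that rose, were named after their values were seen.

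Of 28 tested ARF GAP and clathrin endocytosis genes, 8 rose and 5 fell (median 0.34). With library totals 12 were higher and 4 lower, with the DESeq2 Wald test 4 were higher and 3 lower, and on either RPKM scale 1 was higher and 6 were lower of 35 tested. Picalm, a clathrin assembly protein, had 277 and 182 reads in NONO IP libraries and 44 and 44 in Inputs and rose by 1.79 (SE 0.19, adjusted p = 4.69e-07). Agap3, an ARF GAP gene, rose by 1.42 (SE 0.26, adjusted p = 0.000179), a call that ended on the RPKM scales (adjusted p = 0.112 and 0.106). Cltc, the clathrin heavy chain, and Ap2a2, a subunit of the AP2 adaptor, changed by −1.86 (SE 0.33, adjusted p = 0.000155) and −2.09 (SE 0.37, adjusted p = 0.000140). Cltc and Ap2a2 were tested only because of their Input reads, whereas Picalm and Agap3 reached the count filter in both Inputs. The lower calls named here passed through the group where they are high. No conclusion on direction in the pathway in which AGFG1 acts is therefore drawn. Agfg1 itself lay at 2.75.

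Of 7 tested splicing regulators of smooth and heart muscle, 2 rose and 1 fell (median −0.0020). Rbfox2, a regulator of muscle and nerve exons, had 160 and 150 reads in NONO IP libraries and 26 and 24 in Inputs and rose by 2.04 (SE 0.19, adjusted p = 6.86e-08). Celf2 had 34 and 17 reads in NONO IP libraries and 4 and 1 in Inputs, a log2 fold change of 2.71 (SE 0.59, adjusted p = 0.000849; 0.0851 with the length offset), close to that of Rbpms. Its Input reads were below the 23 reads that the least read tested gene had in all libraries together, so it passed the count filter through its NONO IP reads. Ptbp1, a repressor of muscle and nerve exons, changed by −1.39 (SE 0.31, adjusted p = 0.00101), and Celf1 did not pass, at 0.76 (adjusted p = 0.119).

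Of 19 tested cytoskeletal and adhesion genes with muscle-type exons, 5 rose and 8 fell (median −0.12). With library totals 8 were higher and 3 lower (median 0.34, where that of all tested genes was 0.48), and with the DESeq2 Wald test 4 were higher and 4 lower. Fn1, Vcl and Dst, which encode fibronectin, vinculin and dystonin, changed by −1.82, −1.39 and −0.95 (adjusted p = 6.05e-12, 1.39e-08 and 3.76e-07). Smooth muscle markers, in whose cells RBPMS is best known, were lower in sum in the NONO IP while Rbpms was higher. Of 7 tested, 6 fell and none rose with TMM, and 4 fell and none rose with library totals. Of 4 cardiomyocyte markers tested, 1 rose and 2 fell (median −0.34); with library totals 2 were higher and 1 lower. The part of these markers in the Rbpms result was not tested. Fibroblast markers were lower in the NONO IP as well with TMM, with 6 of 8 tested lower and 1 higher (median −0.62). Under library totals 3 were lower and 1 higher (median −0.16, where that of all tested genes was 0.48). Among all tested genes, 26.9% were called lower with TMM. Markers in the NONO IP are read in RNA recovered with the antibody, so recovery, cell number and RNA per cell cannot be told apart here.

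**Figure D3:**
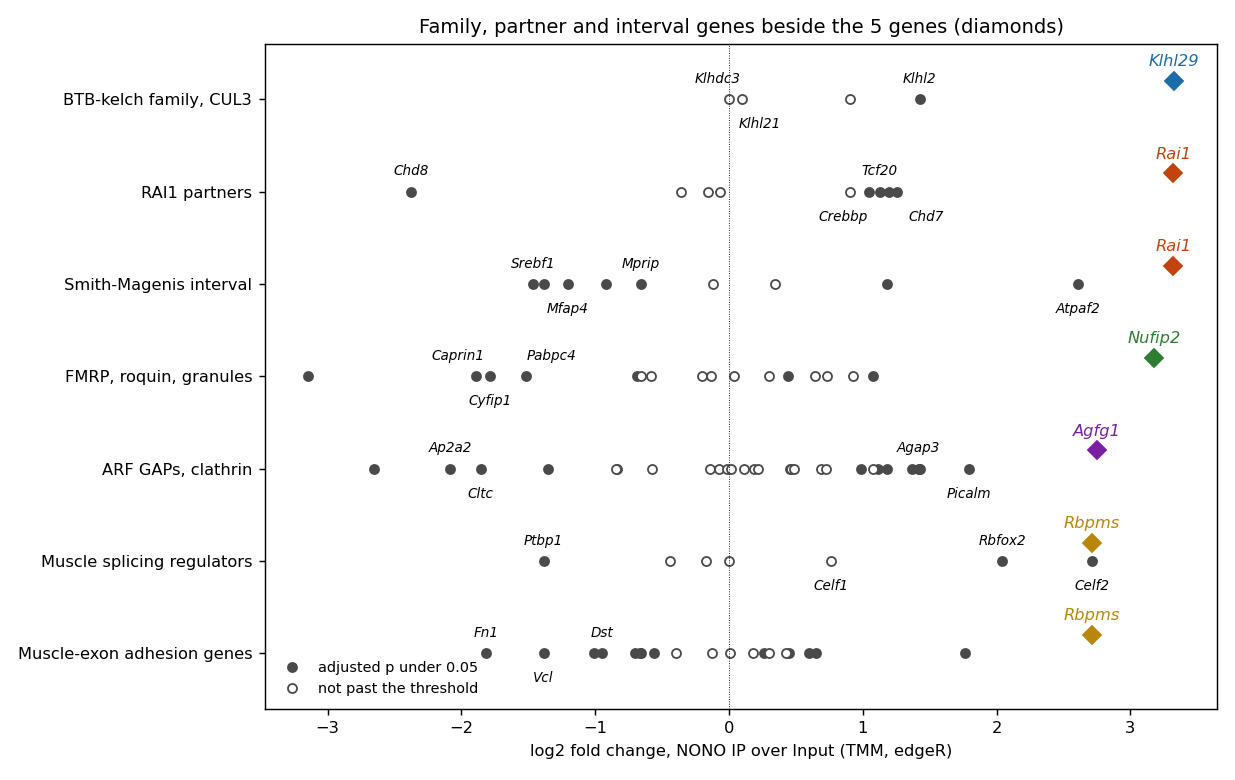
Log2 fold change of NONO IP over Input for tested genes of the 7 lists (circles, filled where the adjusted p was under 0.05) and the gene each list belongs to (diamonds). The circles lie on both sides of 0, and those of highest value are Celf2 at 2.71 and Atpaf2 at 2.61.

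The genes most like the 5 in pattern were found by Euclidean distance of centred log2 CPM over the 4 libraries, among 421 genes with a mean of at least 50 reads and a named symbol. This measure is ruled by the difference between NONO IP and Input, so it is a description only. Klhl29 and Rai1 were each nearest to Erf, an ETS family repressor gene with 190 and 183 reads in NONO IP libraries and 10 and 10 in Inputs, at distances of 0.224 and 0.220. Nufip2, Agfg1 and Rbpms were nearest to Dyrk1a, a kinase gene with 126 and 93 reads in NONO IP libraries and 11 and 9 in Inputs, at 0.356, 0.238 and 0.0694. Kalrn, a RhoGEF gene, was the next nearest for those 3. Smad1 for Klhl29 and Hnrnpf for Rai1, Agfg1 and Rbpms followed, as did Erf for Nufip2, and Dyrk1a came after Erf for Klhl29 and Rai1. Among the 5 themselves, Klhl29 and Rai1 (0.216) and Agfg1 and Rbpms (0.203) were the closest pairs, the same pairing as by fold change.

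The log2 fold changes of the 5 genes depended more on scaling than on any 1 library, before the median of all tested genes was taken off. Leaving out each library in turn gave log2 fold changes of 3.18 to 3.44 for Klhl29, 3.23 to 3.41 for Rai1, 3.01 to 3.35 for Nufip2, 2.44 to 3.02 for Agfg1 and 2.54 to 2.90 for Rbpms. Both ends of the Agfg1 range came from leaving out an Input, the group in which its replicates were furthest apart. Between the other settings the lowest and highest values were 2.43 (length offset) and 3.79 (library totals) for Klhl29, and 1.75 (length offset) and 3.18 (library totals) for Rbpms. Library totals moved the median of all tested genes to 0.48, and the RPKM scales to −0.61 and −0.82 over 7576 genes, against 0.02 with TMM. Relative to that median, Klhl29 lay at 3.30 with TMM, 3.31 with library totals, and 3.09 and 3.47 on the RPKM scales, and Rbpms at 2.69, 2.69, 2.46 and 2.86. Agfg1 lay at 2.72, 2.73, 2.68 and 2.93. With a library left out, Agfg1 lay between 2.35 (without Input replicate 2) and 2.92 (without NONO IP replicate 2), a wider range than scaling gave.

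**Figure D4:**
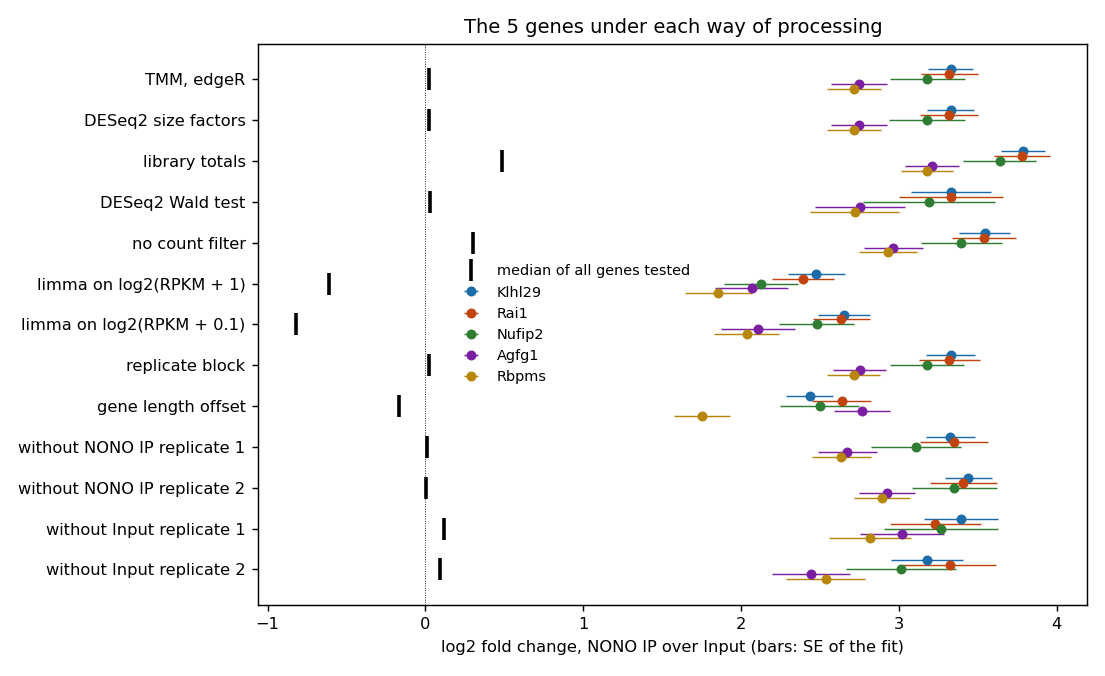
Log2 fold change of NONO IP over Input for each of the 5 genes (points, with the SE of the fit) and the median of all genes tested (black ticks) under each way of processing. Scaling moves genes and median together, and with the length offset Agfg1 comes first, at 2.77, while Rbpms stays last, at 1.75.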

How the data were processed

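Gene-level values from 2 NONO IP and 2 Input libraries were used; groups and replicate numbers came from the titles. The authors deposited raw counts, as whole reads for each gene. They also deposited RPKM values, in which reads are divided by gene length and by a library total that the sources used here do not give. HISAT2, HOMER and mRatBN7.2 are named, per the submitters' processing notes, with no role stated; the annotation, strand setting and treatment of reads with several positions are not given. Per the labels' protocols, RNA was DNase-treated and poly(A)-selected and libraries were stranded.

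The members and gene lists were chosen with earlier results of these data known. Genes were tested with the quasi-likelihood test of edgeR 4.0.16 (in R 4.3.3), with TMM scaling and filterByExpr, which kept 2920 genes holding 91.1% of reads, and Benjamini-Hochberg adjustment at 0.05. The test was also run on simulated counts in which most genes did not change, a setting unlike these data, and nothing is concluded from that run. SE is the log2 fold change over the root of F. Relative lengths were counts over RPKM, scaled by 461 genes with at least 30 reads in every library. The replicate chi-square per degree of freedom was 1.42 in the NONO IP and 1.12 in the Input, so libraries were kept apart in the test. Intervals are exact and were taken on reads summed over the 2 libraries of a group. They cover counting error only, since reads carry no molecular identifiers, and leave out further spread between libraries. Alternatives were the Wald test and the size factors of DESeq2 (1.42.0), library totals alone, no filter, limma (3.58.1) on RPKM values that reached 1 in 2 libraries, as log2 with a pseudocount of 1 or 0.1, the replicate block, a loess offset for length (span 0.5) and each library left out. A fold change on a log2(RPKM + pseudocount) scale understates changes of low genes.

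Genes named were the members, paralogs, up to 4 genes of each list with the smallest adjusted p, 3 genes nearest in pattern (prior count 2), nearest listed neighbours on the chromosome and the genes above and below in fold order; genes overlapping a member, Nono, and others said so were added later. Some genes so chosen are not reported here. RefSeq's GRCr8 gene table, which held 91.6% of listed symbols, served for names and neighbours only.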

Additional observations from a re-analysis of the deposited data

How the results depend on the processing

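The count of genes called, 1657, was 876 with the DESeq2 Wald test and within 1.5 times of it under the other alternatives. The median log2 fold change of the 5 genes, 3.18, was 3.64 with library totals, 3.40 with no count filter, 2.13 and 2.48 on the RPKM scale with pseudocounts of 1 and 0.1, and 2.50 with the length offset. Of the family and partner genes, 23 were higher; this count was 36 with library totals, 10 with the DESeq2 Wald test, 3 and 2 on the RPKM scales with pseudocounts of 1 and 0.1, 14 with the length offset, and 15 (without Input replicate 1) to 23 with a library left out. The 24 lower ones became 15 with library totals and 13 with the DESeq2 Wald test. The cause was not tested.

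Among 32 other genes chosen by the same rules, 322 of the alternative values kept direction and call, 43 lost the call, 3 gained it and 14 changed sign, all of these for genes that did not pass. Klhdc3 (−0.0016) was 0.45 with library totals, 0.21 with no filter, 0.38 with the length offset, 0.13 without NONO IP replicate 2, and −0.22 to 0.15 with an Input left out. Klhl21 (0.10) was −0.45 and −0.50 on the RPKM scales, −0.012 with the length offset, and −0.31 (without Input replicate 1) to 0.54 with a library left out. Myo18a (0.24) was −0.35 and −0.42 on the RPKM scales and −0.31 with the length offset, and Tom1l2 (0.34) was −0.25 and −0.31 on the RPKM scales.

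With the replicate number as a block, 1676 genes were called and the median of the 5 genes was 3.18. Deviations of same-numbered libraries from their group means correlated at 0.05, and no label says that a number marks a shared culture, so the numbers were not taken as pairs. Depth limits the Inputs most, where Nufip2 rests on 22 reads.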
